A study of Mus musculus with 42 samples.

Results

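The comparison described here is of colon crypts taken after chemical injury from mice without a working *Mtg16* gene and from their WT littermates. It holds 7 of the 42 samples of the series, 4 from Mtg16-null mice and 3 from WT mice of the same colony, assigned to groups by their labels. The mice were on a C57/BL6 background and at least 8 weeks old, and they drank 2% (w/v) dextran sodium sulfate (DSS) for 5 days and then water for 4 days. RNA was sequenced from crypts loosened with a chelating buffer from the last 5 cm of colon before the anus. The null allele is not tied to a Cre driver in the study's methods, so any immune and stromal cells in the crypt preparations carry it as well as the epithelium. The other distal crypts used here serve only to show where these 7 samples differ. They are the untreated (baseline) crypts of the same colony, 4 Mtg16-null and 4 WT, and crypts of a separate colony after the same DSS course, 3 T/T and 3 WT. T/T mice are homozygous for a proline-to-threonine substitution in MTG16 that weakens its binding to E proteins.

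MTG16, encoded by *Cbfa2t3*, is a transcriptional corepressor of the myeloid translocation gene family. It does not bind DNA itself but is recruited by transcription factors, among them the E proteins, basic helix-loop-helix factors that bind short motifs called E boxes. In the gut, such factors direct secretory differentiation: ATOH1 opens the secretory lineage and drives goblet cells, and NEUROG3 commits cells to the enteroendocrine fate. DSS strips the colonic epithelium, most severely in the distal colon, and recovery draws on stem cells, de-differentiating cells and a fetal-like repair program.

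The E box consensus is CANNTG, which reads the same on both strands. The 300 bases around the start of 3 genes described below are shown because *Neurog3* and *Ang4* were higher and *Atoh1* was lower in Mtg16-null crypts. They run from 250 bases before the start to 50 after it (RefSeq, GRCm38.p6), in lower case with each CANNTG in capitals. *Neurog3* lies on the forward strand at chr10:62132840-62133139, *Atoh1* on the forward strand at chr6:64728875-64729174 and *Ang4* on the reverse strand at chr14:51773541-51773840.
Neurog3: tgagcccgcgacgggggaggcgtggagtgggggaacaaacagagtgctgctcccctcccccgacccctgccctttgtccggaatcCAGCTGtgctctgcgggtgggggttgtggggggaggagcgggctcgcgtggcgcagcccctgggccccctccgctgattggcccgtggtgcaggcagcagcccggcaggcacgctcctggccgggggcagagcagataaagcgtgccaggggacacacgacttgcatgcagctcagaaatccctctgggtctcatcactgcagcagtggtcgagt
Atoh1: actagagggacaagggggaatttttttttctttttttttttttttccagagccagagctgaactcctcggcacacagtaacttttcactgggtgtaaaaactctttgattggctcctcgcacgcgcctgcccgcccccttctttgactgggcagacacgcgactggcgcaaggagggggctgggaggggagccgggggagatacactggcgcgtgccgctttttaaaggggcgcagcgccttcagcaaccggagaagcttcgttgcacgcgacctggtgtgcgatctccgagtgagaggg
Ang4: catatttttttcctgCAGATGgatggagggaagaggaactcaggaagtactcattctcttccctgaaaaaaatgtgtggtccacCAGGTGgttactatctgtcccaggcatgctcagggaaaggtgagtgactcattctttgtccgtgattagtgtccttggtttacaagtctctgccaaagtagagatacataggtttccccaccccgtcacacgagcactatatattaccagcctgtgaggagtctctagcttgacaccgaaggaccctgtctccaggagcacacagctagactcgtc
The *Neurog3* window held 1 CANNTG, of the form CAGCTG, the *Ang4* window held 2 and the *Atoh1* window held 0. Of all 32851 promoters of that length, 72.3% held at least 1 CANNTG and 16.3% held CAGCTG, so these matches are common and describe the letters only.

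The 7 libraries held 47306714 to 61770694 reads assigned to genes (median 57026727). The labels do not say that each library is 1 mouse, so p-values measure the spread between these samples. Values below are normalized counts, that is, reads per gene divided by 1 size factor per library. A gene is called changed where limma on log2 (normalized count + 1) gave an adjusted p under 0.05 over the 14476 genes with a mean of at least 10. Libraries with the same replicate number deviated together, so a second fit with that number as a block is given where it changes a result. Mtg16-null replicate 4 has no WT partner and adds nothing to that fit, which so rests on 3 pairs of libraries and few residual degrees of freedom. Sex-linked transcripts were uneven between the groups. Levels of *Uty*, a Y-linked gene, were 667 to 1071 in WT replicate 3 and Mtg16-null replicates 1 to 3 and 18.6 to 20 in WT replicates 1 and 2 and Mtg16-null replicate 4. *Xist*, expressed from the inactive X, was at 3621, 32425 and 2169 in those last 3 libraries and at most 1.84 in the other 4. *Ddx3y*, also Y-linked, was at 237, 150 and 377 in them, against 0 in the baseline libraries with high *Xist*, so sex could not be read cleanly from these 3 libraries and log2 *Xist* is an imperfect covariate for it. Keratinocyte genes stood out as well. Summed squamous markers (18 of 20 listed) reached 19826 to 32079 in WT and 23393 to 68335 in Mtg16-null crypts after DSS, against 198 to 284 in the baseline libraries and 283 to 448 in the T/T colony.

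*Cbfa2t3*, the deleted gene (chromosome 8, 122625141 to 122699109, GRCm38), was counted first because it checks the genotype labels. Its normalized counts were 2020, 1845 and 2519 in WT and 427, 594, 595 and 486 in Mtg16-null libraries. The groups did not overlap, and reads of the gene remained in every Mtg16-null library. The log2 fold change was -2.02 ± 0.19 (SE, adjusted p = 0.0029), and the level was lower in each of the 4 libraries labelled Mtg16-null than in any WT library. The exact permutation test gave p = 0.0571, two-sided, which is the smallest that 3 against 4 samples can reach, so no single gene can pass 0.05 by that test.

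Of the 14476 genes tested, 55 were higher in Mtg16-null crypts (0.38%) and 36 were lower (0.249%). With the replicate block 828 were higher (5.72%) and 443 lower (3.06%), and these included all 91 genes called without it, each in the same direction. The 2 groups did not overlap for 895 genes that were higher (6.18%) and 762 that were lower (5.26%). The call depended on single libraries: leaving out 1 library at a time left 28 to 106 genes, with 40 without WT replicate 2, 35 without WT replicate 3, 38, 28 and 50 without Mtg16-null replicates 1, 3 and 4, 88 without WT replicate 1 and 106 without Mtg16-null replicate 2. Of the 47 named genes that were called, 16 kept their call in all 7 of these fits. With log2 *Xist* added to the fit, 19 genes were called, all among the 91 and in the same direction. Of the 47 named calls 14 were kept in that fit, among them *Cbfa2t3*, *Ngp*, *Chil3*, *Ang4*, *Myrip*, *Ces1c*, *Pcsk5*, *Mptx1*, *Rab3b*, *Gal3st2c*, *Cps1*, *Dclk1* and *Rbp4*. The other called genes named below, except *Dmpk*, were not called with *Xist*.

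**Figure D1:**
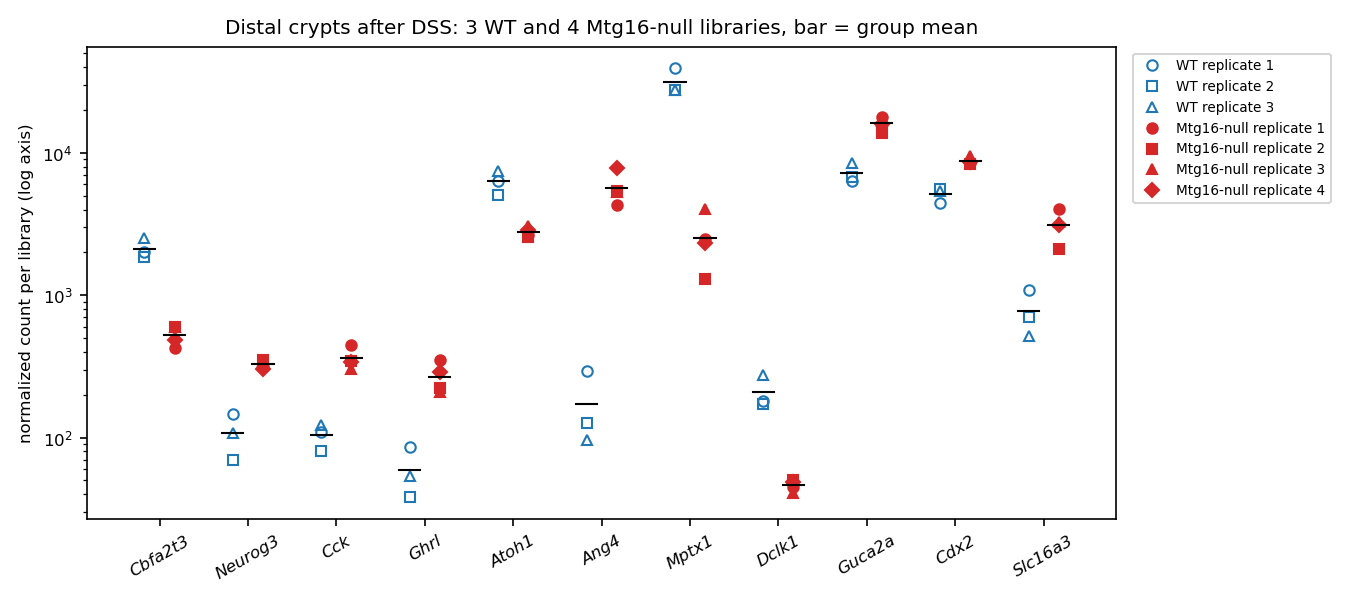
Normalized counts (log axis) of 11 genes in each of the 3 WT (open blue) and 4 Mtg16-null (filled red) libraries after DSS, with marker shapes for replicate numbers and bars for group means. For each of these genes the 2 groups are separate, as for Atoh1 (WT 5059 to 7484, Mtg16-null 2578 to 3063).

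*Neurog3* and the hormone genes *Cck* and *Ghrl* of enteroendocrine cells were higher in Mtg16-null crypts. *Neurog3*, the fate-setting factor, had 146, 69.4 and 107 normalized counts in WT and 315, 352, 343 and 302 in Mtg16-null libraries. Every Mtg16-null value was above every WT value, a 3.17-fold difference (log2 fold change 1.66 ± 0.27, adjusted p = 0.032). The call was lost when any library other than WT replicate 1 was left out (adjusted p up to 0.12) and with the *Xist* covariate (adjusted p = 0.15). Among 20 enteroendocrine transcription factors, 1 was higher and 0 were lower, and with the replicate block 5 were higher: *Neurog3*, *Neurod1*, *Insm1*, *Sox4* and *Fev*. Their median log2 fold change was 0.59, against -0.002 over all genes tested, and 16 of 20 were positive. In bulk crypts, more cells of a type and more RNA per cell cannot be told apart.

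Of 22 tested hormones, granins and processing enzymes, 3 were higher and 0 lower (median 0.43). These were *Cck*, *Ghrl* and *Nts*, which encode cholecystokinin, ghrelin and neurotensin. *Cck* had 109, 80.1 and 122 normalized counts in WT and 449, 347, 305 and 340 in Mtg16-null libraries (log2 fold change 1.79 ± 0.24, adjusted p = 0.014), and it kept its call without any 1 library. The calls of *Ghrl* and *Nts* were lost in 5 and 6 of 7 such fits (adjusted p up to 0.079 and 0.14), with *Ghrl* kept without WT replicate 1 or Mtg16-null replicate 2 and *Nts* without WT replicate 2. With the *Xist* covariate none of these 3 was called (adjusted p = 0.081 for *Cck*, 0.1 for *Ghrl* and 0.15 for *Nts*). *Ghrl* had 86.5, 38.1 and 53.8 against 351, 222, 210 and 290 (2.20 ± 0.32, adjusted p = 0.023). *Nts* was scarce, at 1.08, 7.82 and 1.82 against 20.5, 55.2, 90.8 and 36.8, and passed the filter on low values only through the Mtg16-null libraries, so its call adds no support to the count of 3. With the block 8 members were higher, among them *Gcg* (log2 fold change 0.86), *Sct* (0.99) and *Chgb* (0.79). *Chga*, the classical granin marker, had 3585, 2060 and 3285 against 4540, 3918, 4041 and 5152 (0.60 ± 0.21, adjusted p = 0.25). Its groups did not overlap, but it did not pass either fit (block adjusted p = 0.051).

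Goblet cell genes went in both directions. *Atoh1* had 6378, 5059 and 7484 normalized counts in WT and 2659, 2578, 3063 and 2853 in Mtg16-null libraries. The groups were well apart (log2 fold change -1.16 ± 0.16, adjusted p = 0.016), and the call was lost without WT replicate 3 or Mtg16-null replicate 1, 3 or 4 (adjusted p up to 0.068) and with *Xist* (0.051). *Ang4*, which encodes an angiogenin made by Paneth and goblet cells, was higher. It had 293, 127 and 96.7 in WT and 4294, 5372, 5284 and 7791 in Mtg16-null libraries, a 36-fold difference (5.17 ± 0.35, adjusted p = 0.0011) that held without any 1 library. Of 24 tested goblet genes these were the only ones called (median -0.19). With the block 3 were higher (*Ang4*, *Tff3* and *Retnlb*) and 6 were lower (*Atoh1*, *Clca1*, *Zg16*, *Ern2*, *Bcas1* and *Fer1l6*). *Clca1*, a secreted mucus component, had 134396, 210339 and 118835 against 28675, 62441, 58092 and 74377 (block log2 fold change -1.67). *Spdef*, a goblet maturation factor, had a log2 fold change of 0.25 ± 0.20 (adjusted p = 0.68), and its groups overlapped. *Muc2* was not analysed here.

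Tuft cells are chemosensory cells that express *Dclk1* and the channel *Trpm5*. *Dclk1* had 181, 172 and 275 normalized counts in WT and 44.6, 50.6, 40.8 and 48.4 in Mtg16-null libraries (log2 fold change -2.13 ± 0.27, adjusted p = 0.011), and its call was lost without WT replicate 3 (adjusted p = 0.056). *Trpm5* had 135, 90.9 and 169 against 24.1, 30.4, 37.2 and 28.4 (-2.07 ± 0.32, adjusted p = 0.026), and its call held only without WT replicate 2 or Mtg16-null replicate 2 (adjusted p up to 0.097 otherwise, 0.075 with *Xist*). Both were lower, and 0 of the 16 tested tuft genes were higher. With the block 3 were lower (*Dclk1*, *Trpm5* and *Rgs13*) and 2 higher, among them *Alox5ap*, which myeloid cells also express. *Pou2f3*, the tuft master factor, had 70.3, 40.1 and 47.4 against 77.2, 40.5, 51.7 and 67.4 (0.17, adjusted p = 0.86), and the list median was 0.03.

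**Figure D2:**
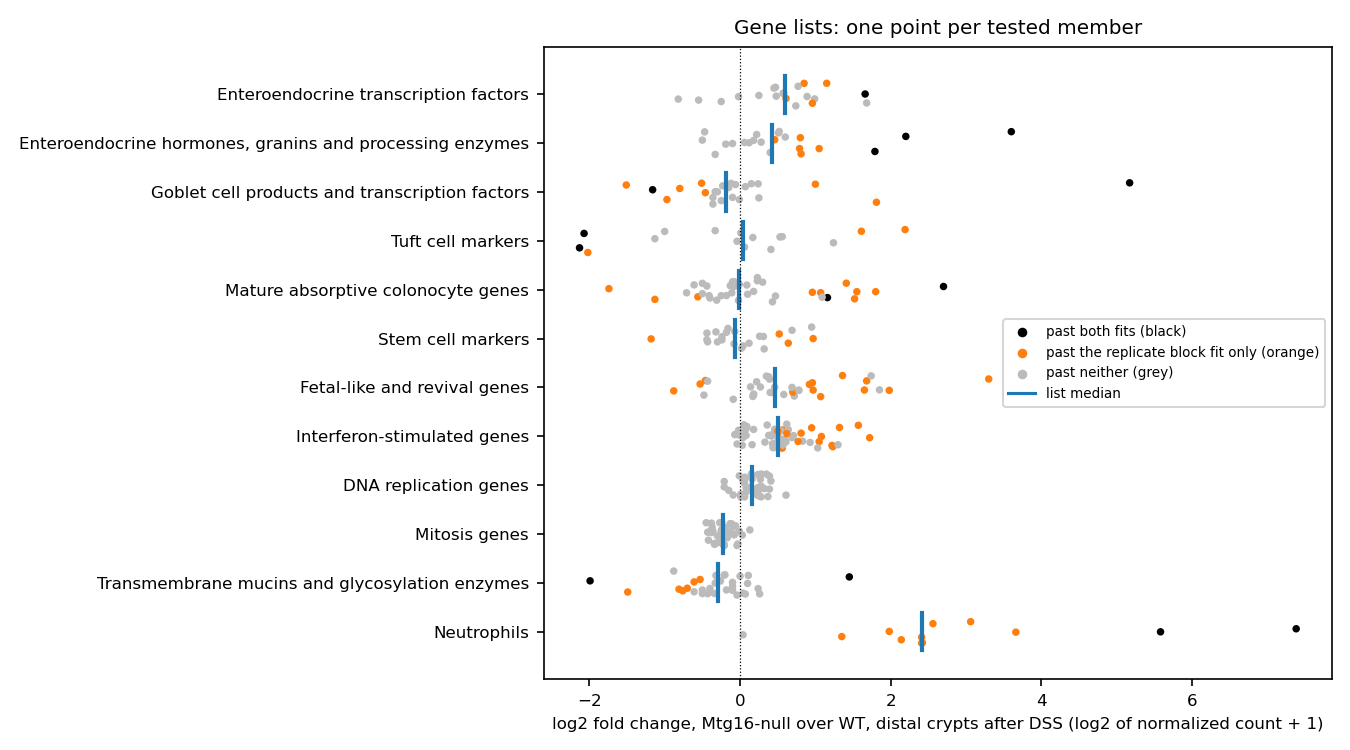
Log2 fold changes (Mtg16-null over WT, after DSS) of the tested members of 12 gene lists, 1 point per gene, coloured by the fits passed, with a blue bar at each list's median. Medians run from -0.29 for transmembrane mucins and glycosylation enzymes to 2.41 for neutrophil markers, and mitosis genes sit at -0.23 with few members above 0.

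*Guca2a*, encoding guanylin, a colonocyte peptide, was higher in Mtg16-null crypts. It had 6396, 6777 and 8459 normalized counts in WT and 18026, 13707, 16820 and 15860 in Mtg16-null libraries (log2 fold change 1.16 ± 0.16, adjusted p = 0.016), and lost its call without WT replicate 2 or Mtg16-null replicate 3 (adjusted p up to 0.066) and with *Xist* (0.091). Of 37 tested genes of mature absorptive colonocytes 2 were higher, *Guca2a* among them, and 0 were lower (median -0.02). With the block 8 were higher, including *Car1* (1.61) and *Alpi* (1.88), and 3 were lower, *Slc37a2* (-2.09), *Atp12a* (-1.35) and *Car2* (-0.57). *Aqp8* (-0.02) and *Krt20* (0.10) overlapped between groups. *Cdx2*, an intestinal identity factor, had 4452, 5575 and 5414 against 8468, 8380, 9563 and 8649 (0.77 ± 0.14, adjusted p = 0.043) and was called in 0 of 7 fits without a library.

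Among called genes with a mean of at least 100, the largest decrease was that of *Mptx1*, which encodes a mucosal pentraxin. It had 39232, 27782 and 27798 normalized counts in WT and 2495, 1303, 4010 and 2344 in Mtg16-null libraries, 13.3-fold lower (log2 fold change -3.73 ± 0.32, adjusted p = 0.0029). *Cps1*, the mitochondrial carbamoyl phosphate synthetase, had 1844, 2237 and 1703 against 423, 419, 351 and 570 (-2.14 ± 0.20, adjusted p = 0.0029). Both held without any 1 library, as did *Rab3b* (-2.75) and *Gal3st2c* (-2.23). *Rab3b* encodes a GTPase of regulated exocytosis. *Dlk1* (-3.55), *Cma1* (-2.26), *Col8a1* (-2.21) and *Slc16a12* (-2.21) were also among the 10 decreases named by size, and each lost its call without at least 1 library. *Cma1* is a mast cell protease, and summed mast cell markers were 3698 to 6426 in WT and 2507 to 3687 in Mtg16-null libraries. The part of mast cell number in its change was not tested. Among mucins and glycosylation enzymes, the transmembrane mucin *Muc1* was lower (-1.99 ± 0.33, adjusted p = 0.035) and *B4galnt1*, a ganglioside synthase, was higher (1.45 ± 0.20, adjusted p = 0.017), and with the block 7 of 33 tested were lower. *Muc1* kept its call only without WT replicate 3 or Mtg16-null replicate 2 (adjusted p up to 0.12 otherwise), and *B4galnt1* lost its call without WT replicate 3 or Mtg16-null replicate 3 or 4 (adjusted p up to 0.078). Neither was called with *Xist* (0.12 and 0.081).

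Among the other increases with the largest change were *Pcsk5* (2.85), a proprotein convertase, *Insrr* (2.74), an alkali-sensing receptor related to the insulin receptor, *Myrip* (3.14), a motor adaptor of secretory granules, *Ces1c* (3.05), a carboxylesterase, and *Bmp8b* (2.72), a bone morphogenetic protein. *Pcsk5* had 76.8, 114 and 135 normalized counts in WT and 674, 804, 910 and 710 in Mtg16-null libraries (SE 0.24, adjusted p = 0.0029). *Pcsk5*, *Myrip* and *Ces1c* held without any 1 library. *Insrr* lost its call in 4 of 7 such fits, and *Bmp8b* in 1, without WT replicate 3 (adjusted p = 0.068).

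*Ngp*, *Chil3* and *Lyz2*, genes of neutrophils and macrophages, were also among the largest increases, with counts of 1.08, 0 and 8.21 against 1984, 210, 684 and 138 for *Ngp*. *Camp*, an antimicrobial peptide of neutrophil granules, had 0 reads in all 3 WT libraries and 291, 20.2, 80.8 and 9.47 in Mtg16-null libraries, at least 102-fold higher if 3 reads are allowed over the WT group. *Ngp* kept its call without any 1 library, whereas *Chil3*, *Lyz2* and *Camp* lost theirs in 4, 6 and 5 of 7 such fits. Of 14 neutrophil markers 12 passed the filter on low values, *Ngp* and *Camp* only through the Mtg16-null libraries, so the counts over those 12 describe them and support nothing: 2 were higher and 0 lower (median 2.41), and with the block 11 were higher. *S100a8*, an abundant neutrophil calprotectin subunit, had 514, 417 and 970 against 6023, 1540, 5619 and 1892 (2.41, adjusted p = 0.07). Of the 5 red blood cell markers (hemoglobins and *Alas2*) 0 were called and 5 were higher with the block, and they summed to 119 to 422 in WT and 825 to 9848 in Mtg16-null libraries. Of 15 myeloid markers 1 was higher, and 12 with the block, and the summed neutrophil markers were 6388 to 9652 in WT and 9674 to 25928 in Mtg16-null libraries. Summed epithelial markers were 1035844 to 1384871 in WT and 1048662 to 1491203 in Mtg16-null libraries. Summed fibroblast markers were 1254 to 1933 in WT and 2098 to 8400 in Mtg16-null libraries, and with the block 5 of 10 tested were higher. Blood, immune and stromal cell content was not tested as a part of any difference described here, the interferon and chemokine counts below included.

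**Figure D3:**
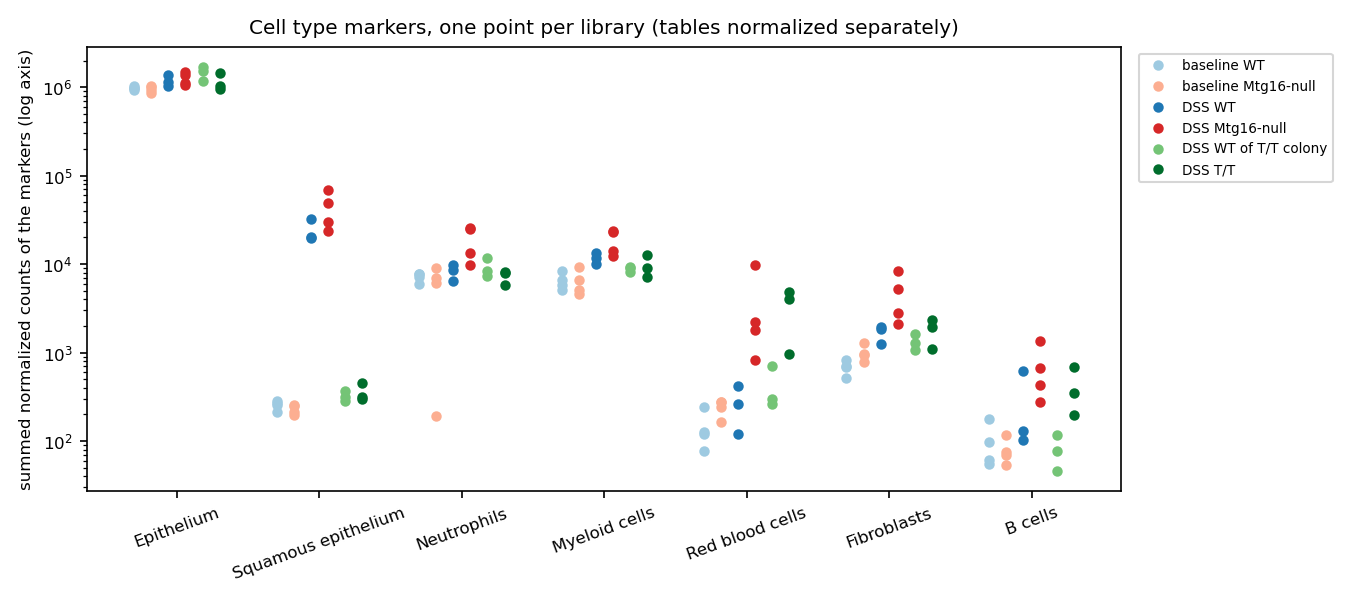
Summed normalized counts (log axis) of cell type markers, 1 point per library, in baseline, DSS and T/T colony crypts, each table scaled on its own. Squamous markers sum to 198 to 448 in the baseline and T/T tables and 19826 or more in each of the 7 libraries described here, and red blood cell markers are higher in each Mtg16-null library than in any WT library after DSS.

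Of the interferon, MHC class II, chemokine and fetal-like lists, only the chemokines had members called without the block. Interferon-stimulated genes had a median of 0.51 with 52 of 56 positive, 0 called, and 15 higher with the block, among them *Ifit2* (1.72) and *Irf7* (0.85). Of 25 tested chemokines, *Cxcl16* (1.58 ± 0.26, adjusted p = 0.033) and *Ccl9* (1.27 ± 0.16, adjusted p = 0.011) were higher. *Cxcl16* kept its call only without Mtg16-null replicate 2 (adjusted p up to 0.12 otherwise), *Ccl9* lost its call without WT replicate 3 or Mtg16-null replicate 3 (up to 0.056), and neither was called with *Xist* (0.15 and 0.078). *Reg3b*, an antimicrobial lectin, had 6605, 17191 and 6316 in WT and 75137, 21777, 54833 and 15085 in Mtg16-null libraries, with overlap (1.93, adjusted p = 0.16, block adjusted p = 0.022). *Reg3g* had a block adjusted p of 0.036. Of 35 fetal-like and revival genes 0 were called (median 0.46), and 10 were higher and 3 lower with the block. *Clu* (0.58, adjusted p = 0.58) and *Ly6a* (0.40, adjusted p = 0.47), which mark revival and fetal-like cells, did not pass either fit.

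Of 161 tested genes of regenerating epithelium after DSS colitis, 8 were higher and 0 lower (median 0.70), and 61 were higher and 3 lower with the block. The neutrophil, red blood cell and fibroblast sums above were higher in every Mtg16-null library than in any WT library, and their part in this count was not tested. *Tgm2*, a transglutaminase, had 4022, 3848 and 2759 against 13350, 7335, 17601 and 12336 (1.79 ± 0.27, adjusted p = 0.026), and kept its call only without WT replicate 1 or Mtg16-null replicate 2 (adjusted p up to 0.095 otherwise, 0.089 with *Xist*). *Myl7* (2.27), *Ckb* (1.81) and *Eya2* (1.80) were also higher, and *Ckb* lost its call without WT replicate 2 or 3 or Mtg16-null replicate 1 or 4 (adjusted p up to 0.089). With *Xist* these 3 were not called (adjusted p = 0.064, 0.058 and 0.051). Of 59 genes of a composite injury-regeneration set 3 were higher (median 0.49), and 20 with the block, and of 249 fetal genes 5 were higher and 0 lower (median 0.13), and 48 were higher and 10 lower with the block. The set of Ascl2-positive de-differentiating cells had 2 higher and 7 lower of 212 (median -0.17, and -0.18 at baseline), and 12 higher and 42 lower with the block. Its 4 largest decreases were *Mptx1*, *Dlk1*, *Lix1* and *Cma1*, and its 2 increases were *Rbp4* (1.60), a retinol carrier that kept its call without any 1 library, and *Ttyh1* (1.37). *Lix1* lost its call without WT replicate 2 or 3 or Mtg16-null replicate 3 (adjusted p up to 0.079), and *Ttyh1* kept its call in 2 of 7 such fits. Of 392 genes of the Clu-positive revival set 1 was higher and 0 lower (median 0), and 21 were higher and 5 lower with the block.

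Of 23 tested stem cell markers 0 were called (median -0.07), and 3 were higher and 1 lower with the block, and *Lgr5* (-0.44, adjusted p = 0.54) and *Ascl2* (0.31, adjusted p = 0.68) overlapped between groups. Of 42 mitosis genes 2 had a positive log2 fold change (median -0.23), of 42 DNA replication genes 37 did (median 0.16), and 0 of either passed either fit. *Mki67* had 12217, 26162 and 19854 against 12074, 19287, 14782 and 13400 (-0.34, adjusted p = 0.67). The E proteins *Tcf3*, *Tcf4* and *Tcf12*, partners that MTG16 restrains, had log2 fold changes of 0.17, 0.16 and -0.02 and did not pass. Of the Id inhibitors of E proteins, *Id4* had 542, 653 and 502 against 1057, 1130, 853 and 884 (0.79, adjusted p = 0.082) and passed with the block (adjusted p = 0.0053), and *Id1* (-0.01), *Id2* (0.24) and *Id3* (-0.28) did not.

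At baseline, in other animals of this colony, 33 of 13831 genes were higher in Mtg16-null distal crypts (0.239%) and 0 were lower, with 641 genes at an unadjusted p under 0.05. With the replicate block 1 was higher. They include the enteroendocrine genes *Chga*, *Chgb*, *Neurod1* and *Scg3*, and they were called in libraries that the comparison after DSS does not share. After DSS all 33 had a positive log2 fold change and 25 did not overlap between groups, but 3 were called (*Insrr*, *Myrip* and *Dmpk*), and 15 with the block. Their median was 1.67 at baseline, where the call chose them and so raised it, and 0.81 after DSS, so the 2 medians do not show a smaller effect after DSS. *Dmpk*, a kinase, was at 1.76 at baseline and 1.64 after DSS. Outside the 33, *Atoh1* was at -0.96 at baseline, *Dlk1* at -4.19, *Rbp4* at 1.55, *Ces1c* at 2.99 and *Ang4* at 2.54. Others named above lay near 0 at baseline, such as *Dclk1* at 0.10, *Gal3st2c* at -0.10 and *Cxcl16* at 0.02. None of these was called at baseline. Of the 33, 0 passed the test of the difference between the 2 effects, made over the 13559 genes tested in both tables.

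**Figure D4:**
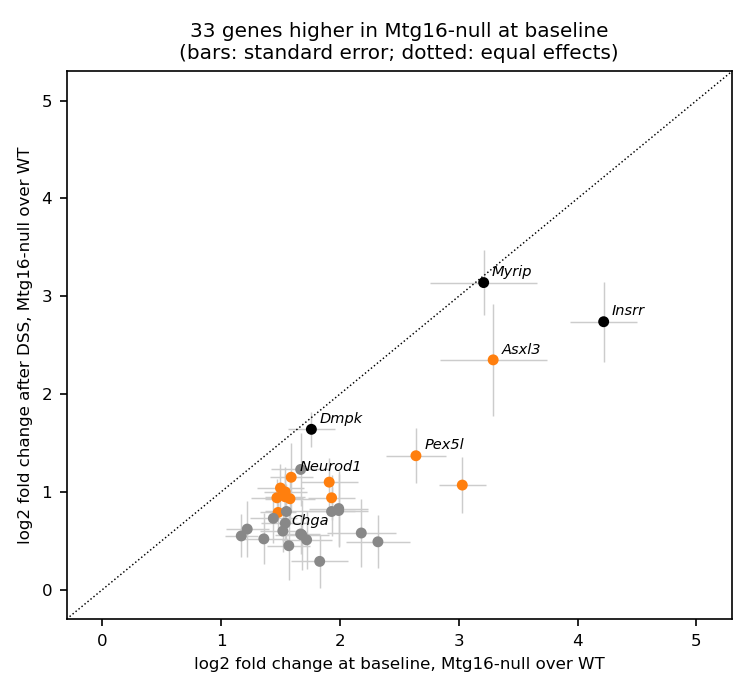
Log2 fold changes at baseline (x axis) and after DSS (y axis), Mtg16-null over WT, of the 33 genes called higher at baseline, with standard errors and a dotted line of equal effects. All 33 lie above 0 after DSS, and Insrr (4.22 and 2.74), Myrip and Dmpk are called in both.

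Across those 13559 genes the effect differed for 1, which was higher after DSS (0.00738%), and for 65 with the replicate block. *Slc16a3*, a lactate exporter, had 1083, 708 and 517 normalized counts in WT and 4033, 2102, 3285 and 3134 in Mtg16-null crypts after DSS. At baseline it had 354, 418, 349 and 709 in WT and 420, 335, 330 and 294 in Mtg16-null crypts. Its log2 fold change was 2.05 after DSS, a call lost without WT replicate 2 or 3 or Mtg16-null replicate 3 (adjusted p up to 0.066), and -0.36 at baseline, a difference of 2.41 ± 0.37 (adjusted p = 0.048). An interaction term in edgeR passed 0 genes, with 462 at an unadjusted p under 0.05 against 457 with limma. When 1 library after DSS was left out, 0 to 3 genes passed, and no baseline library was left out. Without WT replicate 2 or 3 or Mtg16-null replicate 1, 3 or 4 after DSS, 0 passed. Sequencing request and treatment cannot be told apart here. *Xist* differed as well. At baseline it was at 18902 to 36088 in Mtg16-null replicates 1, 3 and 4 and at 7.33 in replicate 2. After DSS it was at most 1.84 in Mtg16-null replicates 1 to 3 and at 2169 in replicate 4. Sex was not tested as a part of these differences.

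In the T/T colony after the same DSS course, 0 of 13648 genes passed limma, with 1197 at an unadjusted p under 0.05. Log2 fold changes there for genes named above were as follows: *Ang4* 3.40, *Atoh1* -1.13, *Mptx1* -4.24, *Dclk1* -1.84, *Neurog3* 1.01 and *Muc1* -2.12. Other genes lay apart from their values in Mtg16-null crypts, with *Mki67* at 1.89 in T/T and -0.34 in Mtg16-null, *Aqp8* at -1.35 and -0.02, *Cps1* at -0.42 and -2.14 and *Chga* at 0.02 and 0.60, and none of these 4 differences passed its test (adjusted p = 0.76). The median of the mitosis genes was 0.76 in T/T and -0.23 in Mtg16-null crypts, and that of the tuft genes was -0.93 and 0.03. Differences between these medians were not tested. *Mki67* had 620, 576 and 1817 normalized counts in WT of the T/T colony and 2405, 8129 and 1712 in T/T libraries, with overlap. *Ang4* had 466, 755 and 35.3 normalized counts in WT of that colony and 4336, 2428 and 1434 in T/T libraries. *Guca2a* was at 0.03 in T/T and 1.16 in Mtg16-null crypts, a difference that did not pass its test. Of 13536 genes in both tables the effect differed for 2, 1 higher (0.00739%) and 1 lower (0.00739%). *Cbfa2t3* itself was at -2.02 in Mtg16-null and 0.13 in T/T crypts (difference -2.15 ± 0.26, adjusted p = 0.0057). *Tppp3*, a tubulin-binding protein, was at 0.28 in Mtg16-null and -2.88 in T/T crypts (3.16 ± 0.47, adjusted p = 0.031). *Tppp3* had 1647, 1841 and 836 in WT of the T/T colony and 204, 183 and 169 in T/T libraries, and 2870, 1826 and 2487 against 4895, 1735, 2264 and 3516 here. The call of *Tppp3* was lost with edgeR and without WT replicate 2 or Mtg16-null replicate 4 of the Mtg16-null colony. Leaving out 1 library of that colony, with the T/T colony kept whole, gave 1 to 4 genes, and the replicate block gave 4. Colony and request cannot be told apart. *Xist* was at most 4.29 in each library of the T/T colony, and sex was not tested as a part of these differences.

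**Figure D5:**
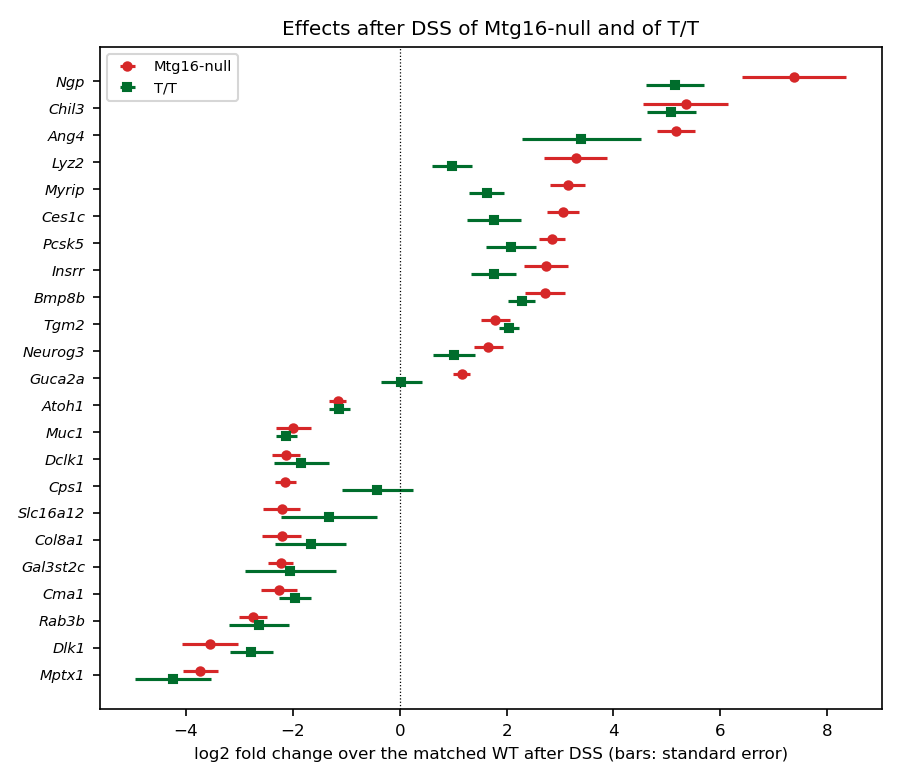
Log2 fold changes after DSS, with standard errors, of most of the called genes with the largest changes and of Neurog3, Atoh1, Guca2a, Muc1 and Tgm2, in Mtg16-null (red circles) and T/T (green squares) crypts, each over its own WT. Each plotted pair, chosen for its call in Mtg16-null crypts, lies on the same side of 0, as for Mptx1 (-3.73 and -4.24), and Guca2a is at 1.16 and 0.03.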

How the data were processed

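RNA from distal colon crypts was sequenced in 3 WT and 4 Mtg16-null samples after DSS. Per the labels and the study's methods, the authors trimmed reads with fastp 0.20.0, quantified transcripts with Salmon 1.3.0, summarised them to genes with tximeta and normalized them with DESeq2 1.26.0 in R 3.6.3. The deposited values are a signal, namely counts divided by a size factor per library, with each table normalized on its own. All values came out as whole reads within 0.01 of a read after rescaling. The deposited tables also hold the authors' fold changes and p-values, which were not used.

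Genes averaging 10 or more normalized counts over a table were fitted with limma 3.58.1 (R 4.3.3) with a mean-variance trend on log2 (value + 1), and called at a Benjamini-Hochberg adjusted p under 0.05. The difference between effects of 2 tables, which share no library, was divided by the root of the summed squared standard errors. Simulated data were used to test limma with and without the replicate block, edgeR, DESeq2 and the limma test of a difference. These data held no replicate effect, and the other fits were not tested that way. Same-numbered WT and Mtg16-null libraries deviated together (residual correlations 0.554, 0.46 and 0.317, all above 0.1), and each WT library correlated best with its own number, although WT replicate 1 also correlated with Mtg16-null replicate 4 (0.334) and WT replicate 3 with Mtg16-null replicate 2 (0.164), so the replicate number was used as a block in a second fit. The labels do not say what the number marks. The same block was applied to the baseline and T/T colony libraries, where such correlations were not computed. Alternatives were edgeR 4.0.16 and DESeq2 1.42.0 on the recovered reads, a pseudocount of 0.1, no filter, each of these 7 libraries left out and log2 *Xist* as a covariate. Removal of a transcript length trend, and the block combined with that trend, with *Xist* or with edgeR, were chosen after seeing the data.

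Genes were named by rule: *Cbfa2t3*, the 10 largest called changes per direction with a mean of at least 100 and groups that did not overlap (leaving out symbols that begin with Gm and a digit or end in Rik, unnamed genes, and immunoglobulin and hemoglobin genes), up to 4 called members per direction of each list, a set of lineage, E protein and Id genes, and up to 5 per direction past a difference test. Other list members are named as those that passed the block fit or as lineage markers and were chosen after their values were seen. The comparison and the lists were chosen with earlier results of these data known. Some genes are not reported here.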

Additional observations from a re-analysis of the deposited data

Results flagged for a closer look

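Among the 67 named genes, 3 had 1 Mtg16-null library far from the other 3. Chance alone does this in about 1 in 20 groups. *Bmp8b* had 544 normalized counts in Mtg16-null replicate 3, against 206 to 253 in the others. *Inf2*, a formin, had 2351 in Mtg16-null replicate 4, against 2536 to 2571. *Aqp8*, a water channel of surface colonocytes, had 9078 in Mtg16-null replicate 2, against 17840 to 19126.

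The Mtg16-null effect differed between tables for 3 genes by a limma test of the difference. *Slc16a3* differed by 2.41 on the log2 scale between DSS and baseline. *Cbfa2t3* differed by -2.15 and *Tppp3* by 3.16 between Mtg16-null and T/T crypts after DSS.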

How the results depend on the processing

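The count of 91 changed genes became 1271 with the replicate block, 728 with DESeq2, 19 with the *Xist* covariate, 959 with *Xist* and the block, 1503 with the length trend removed and the block, 1341 with edgeR and the block, and 28 to 106 without 1 library. Of the 33 genes called at baseline, the 3 called after DSS became 15 with the block, 15 with DESeq2, 17 with the length trend removed and the block, 15 with edgeR and the block, and 2 to 3 without 1 library. The 47 named calls became 14 with *Xist* and 20 to 42 without 1 library. The 37 called list members became 331 with the block, 202 with DESeq2, 7 with *Xist*, 383 with length and block, 316 with *Xist* and block, 350 with edgeR and block, and 13 to 47 without 1 library. The gene that differed from baseline became 4 without a filter, 65 with the block, 0 with edgeR and 0 to 3 without 1 library. The 2 that differed from T/T became 4 with the block, 1 with edgeR and 1 to 4 without 1 library. The library left out was in every case 1 of the 7 compared here, never a baseline or T/T colony library. The cause of these shifts was not tested.

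Signs reversed in genes that passed no test of the Mtg16-null effect after DSS. *Aqp8* was at 0.03 with *Xist*, 0.21 with *Xist* and the block and -0.39 to 0.27 without 1 library. *Krt20* was at -0.01 with *Xist* and -0.32 to 0.38 without 1 library. *Tcf12* was at 0.01 with the block, 0.02 with length and block, 0.00 with edgeR and block and -0.22 to 0.09 without 1 library. *Id1* was at 0.16 with *Xist*, 0.44 with *Xist* and the block and -0.20 to 0.11 without 1 library. *Tppp3* was at -0.08 with *Xist* and the block. No named call changed direction in any alternative run. With 3 WT libraries and uneven sex-linked transcripts, calls near the threshold rest on single libraries.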

Other observations

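Posterior homeobox genes, which mark the distal colon, were called lower with the replicate block for 4 of 19 intestinal identity factors. *Hoxd13* had 3321, 3787 and 3549 normalized counts in WT and 815, 2864, 1283 and 1878 in Mtg16-null libraries (block adjusted p = 0.015 by limma, 0.17 without the block). *Hoxd12* had 227, 129 and 185 against 22.9, 74.5, 37.2 and 88.4, and neither gene overlapped between groups. *Hoxd10* (-1.69) and *Hoxb13* (-0.49) were the others, and *Hoxb13* overlapped.

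Of 35 amino acid transport and integrated stress genes 0 were called, and 8 were higher and 0 lower with the block (median log2 fold change 0.27). *Chac1*, a glutathione-degrading enzyme of that response, had 53, 54.7 and 50.2 against 144, 144, 164 and 104 (1.37, adjusted p = 0.053 by limma). Of 19 clock genes 3 were higher and 3 lower with the block, and *Per1*, a core repressor of the clock, had 1621, 788 and 1119 against 2426, 2072, 1924 and 2213.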
